A study of Mus musculus with 34 samples.

Results

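Nodal, Lefty1 and Tdgf1 are 3 of the 8251 genes that the array measured with a probe set assigned to a single gene symbol. They were taken by symbol from the probe annotation and are represented by 4 probe sets. Probe set 99801_at reads Nodal, 93002_r_at reads Tdgf1, and 102345_at and 162480_f_at read Lefty1. The study profiled RNA of mouse pluripotent cells and somatic cells on Affymetrix arrays, in 10 groups and 32 arrays. Embryonic germ cells (EGC, 3 arrays) were a male culture derived from E12.5 germ cells, at passage 19 in LIF and serum. Embryonic stem cells (ESC, 2 arrays) were male, at passages 9 to 14, also in LIF and serum. Primordial germ cells were sorted as Oct4/GFP-positive cells from male embryos at E13.5 (PGC E13.5 male, 3 arrays), from female embryos at E13.5 (PGC E13.5 female, 3 arrays) and from E11.5 embryos (PGC E11.5, mixed sex, 4 arrays). Inner cell masses of mixed sex (ICM, 3 arrays) were isolated from E3.5 blastocysts by immunosurgery. The somatic groups were gonad and mesonephros cells of E11.5 sorted as Oct4/GFP-negative (SGM, 4 arrays, mixed sex), E13.5 embryonic fibroblasts at passage 2 in serum (MEF, 6 arrays, mixed sex), neurospheres of the subventricular zone of 8-week mice at passage 1 in EGF (NSC, 2 arrays, mixed sex), and bone marrow stem and precursor cells of 8-week males (HSC, 2 arrays) sorted from the side population as Lin-, CD34-, Sca-1+ and c-Kit+. The strain was C57Bl/6 throughout except in ICM, which came from C57Bl/6 x C3H F1 in replicates 2 and 3 and from a further cross to CD1 in replicate 1. The labels call the replicates biological without naming animals or separate derivations, so p-values measure the spread between these arrays. That spread was estimated within all 10 groups together, so it can differ from the spread of the groups compared.

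Nodal is a secreted ligand of the TGF-beta superfamily. It binds activin receptors together with the cell-surface coreceptor Cripto, the product of Tdgf1, and the receptors phosphorylate Smad2 and Smad3, which act with Smad4 and partners such as Foxh1. Lefty1 is a diffusible antagonist that blocks Nodal and its coreceptor, and in mouse embryos it is itself a target of the pathway, as is Nodal. The pathway is known for germ layer and left-right patterning and for its activity in pluripotent cells. In the fetal mouse testis, Nodal signalling in germ cells around the time of sex determination has been described in other work.

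The labels were checked against marker genes. The mean log2 signal over 5 pluripotency genes lay between 10.1 and 11.7 in the pluripotent arrays, against 5.17 to 7.34 in the somatic arrays. Neural stem markers were highest in NSC (10.6 to 10.7), blood stem markers in HSC (7.29 to 7.35), fibroblast markers in MEF (13.0 to 13.3) and gonad soma markers in SGM (8.23 to 8.31). The germ cell list did not set all germ cells apart, since PGC E13.5 male arrays had 7.77 to 7.93, whereas ESC arrays had 8.12 to 8.20 and ICM arrays 8.17 to 8.24. Trophectoderm genes were uneven in ICM, with list means of 8.29, 8.59 and 7.02 in replicates 1, 2 and 3. Erythroid genes were high in SGM, with a list mean of 11.1 to 11.8.

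Among the member genes, the array values are log2 signals, and levels of different probe sets are not set against each other. No detection calls were used, so a low value in a group may lie at background. In bulk samples, fewer cells that express a gene and less RNA per cell cannot be told apart. The share of all genes whose arrays did not overlap was counted only for pluripotent against somatic groups.

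Nodal, the ligand, was highest in EGC. Its log2 signal was 9.70, 9.98 and 10.23 in EGC, 8.91 and 8.97 in ESC, and 8.75, 9.26 and 8.66 in PGC E13.5 male. PGC E13.5 female had 7.61, 6.91 and 7.19, PGC E11.5 had 8.72, 8.30, 8.53 and 8.55, and ICM had 7.41, 6.95 and 7.61. The 3 EGC arrays lay above all other arrays, while the arrays of ESC and PGC E13.5 male overlapped, as did those of PGC E13.5 male and PGC E11.5. In the somatic groups the Nodal signal was 5.91, 6.06, 6.04 and 5.95 in SGM, between 5.61 and 6.07 with a median of 5.73 in MEF, 5.36 and 5.34 in NSC, and 5.96 and 5.54 in HSC. The lowest pluripotent array, at 6.91 in PGC E13.5 female, was therefore above the highest somatic array, at 6.07 in MEF. Group means fell in the order EGC (9.97 ± 0.26, SD), ESC (8.94 ± 0.037), PGC E13.5 male (8.89 ± 0.32), PGC E11.5 (8.52 ± 0.17), ICM (7.32 ± 0.34), PGC E13.5 female (7.24 ± 0.36), SGM (5.99 ± 0.075), MEF (5.78 ± 0.17), HSC (5.75 ± 0.30) and NSC (5.35 ± 0.015). Neighbours in that order whose arrays overlapped were ESC with PGC E13.5 male, PGC E13.5 male with PGC E11.5, ICM with PGC E13.5 female, SGM with MEF, and MEF with HSC.

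Tdgf1, the coreceptor, was high in the cultured lines and in ICM and low in every germ cell group. Its log2 signal was 9.47, 9.65 and 10.68 in EGC, 8.95 and 8.80 in ESC, and 7.80, 8.09 and 8.59 in ICM. PGC E13.5 male had 6.00, 5.93 and 5.90, PGC E13.5 female had 5.69, 5.79 and 5.89, and PGC E11.5 had 6.09, 6.59, 6.42 and 6.21. No array of a germ cell group reached the lowest ICM array. In the somatic groups it was 5.42, 5.47, 5.24 and 5.32 in SGM, between 5.19 and 5.58 with a median of 5.40 in MEF, 5.80 and 5.52 in NSC, and 5.51 and 6.74 in HSC. The germ cell groups thus overlapped the somatic range, whose highest array was HSC replicate 2. In order, the means were EGC (9.93 ± 0.65), ESC (8.88 ± 0.11), ICM (8.16 ± 0.40), PGC E11.5 (6.33 ± 0.22), HSC (6.12 ± 0.87), PGC E13.5 male (5.95 ± 0.053), PGC E13.5 female (5.79 ± 0.10), NSC (5.66 ± 0.20), MEF (5.38 ± 0.16) and SGM (5.36 ± 0.10). Arrays overlapped between all neighbours from PGC E11.5 down except PGC E13.5 male and PGC E13.5 female. The suffix of 93002_r_at means that the manufacturer could not meet all of its probe selection rules for this set.

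Lefty1, the antagonist, was highest in EGC and next in PGC E13.5 male. Its log2 signal on probe set 102345_at, the brighter of the pair and the one used for the gene, was 12.07, 11.51 and 11.90 in EGC, 10.15 and 9.90 in ESC, and 11.05, 11.26 and 10.52 in PGC E13.5 male. PGC E13.5 female had 8.91, 8.99 and 9.06, PGC E11.5 had 9.66, 9.38, 9.42 and 9.47, and ICM had 9.02, 9.03 and 9.18. Of the pluripotent groups, only ICM and PGC E13.5 female overlapped each other. In the somatic groups it was 8.73, 8.80, 8.80 and 8.80 in SGM, between 8.64 and 8.86 with a median of 8.77 in MEF, 7.96 and 8.00 in NSC, and 8.57 and 8.36 in HSC. The lowest pluripotent array, at 8.91 in PGC E13.5 female, exceeded the highest somatic array, at 8.86 in MEF, by a narrow margin. Group means fell in the order EGC (11.83 ± 0.29), PGC E13.5 male (10.94 ± 0.38), ESC (10.03 ± 0.18), PGC E11.5 (9.48 ± 0.12), ICM (9.08 ± 0.090), PGC E13.5 female (8.99 ± 0.077), SGM (8.78 ± 0.032), MEF (8.76 ± 0.076), HSC (8.47 ± 0.15) and NSC (7.98 ± 0.029). SGM and MEF overlapped as well.

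The second Lefty1 probe set, 162480_f_at, had a narrower range. It read 7.45, 7.13 and 7.13 in EGC, 6.87 and 6.62 in ESC, and 7.20, 7.17 and 7.28 in PGC E13.5 male. PGC E13.5 female read 6.35, 6.32 and 6.29, PGC E11.5 read 6.47, 6.25, 6.25 and 6.37, and ICM read 5.72, 5.80 and 6.35. The somatic arrays lay between 5.94 and 6.36, so on this set PGC E13.5 female, PGC E11.5 and ICM were not separated from somatic cells. The suffix of the set marks probes shared within a sequence family. Whether its probes, or those of 102345_at, tell Lefty1 from its close relative Lefty2 was not tested. In RefSeq's list of genes, 1 protein-coding gene lies between the neighbouring Lefty1 and Lefty2 genes, and Lefty2 itself was not analysed here. Over the 10 group means the pair of Lefty1 probe sets correlated at r = 0.93.

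**Figure D1:**
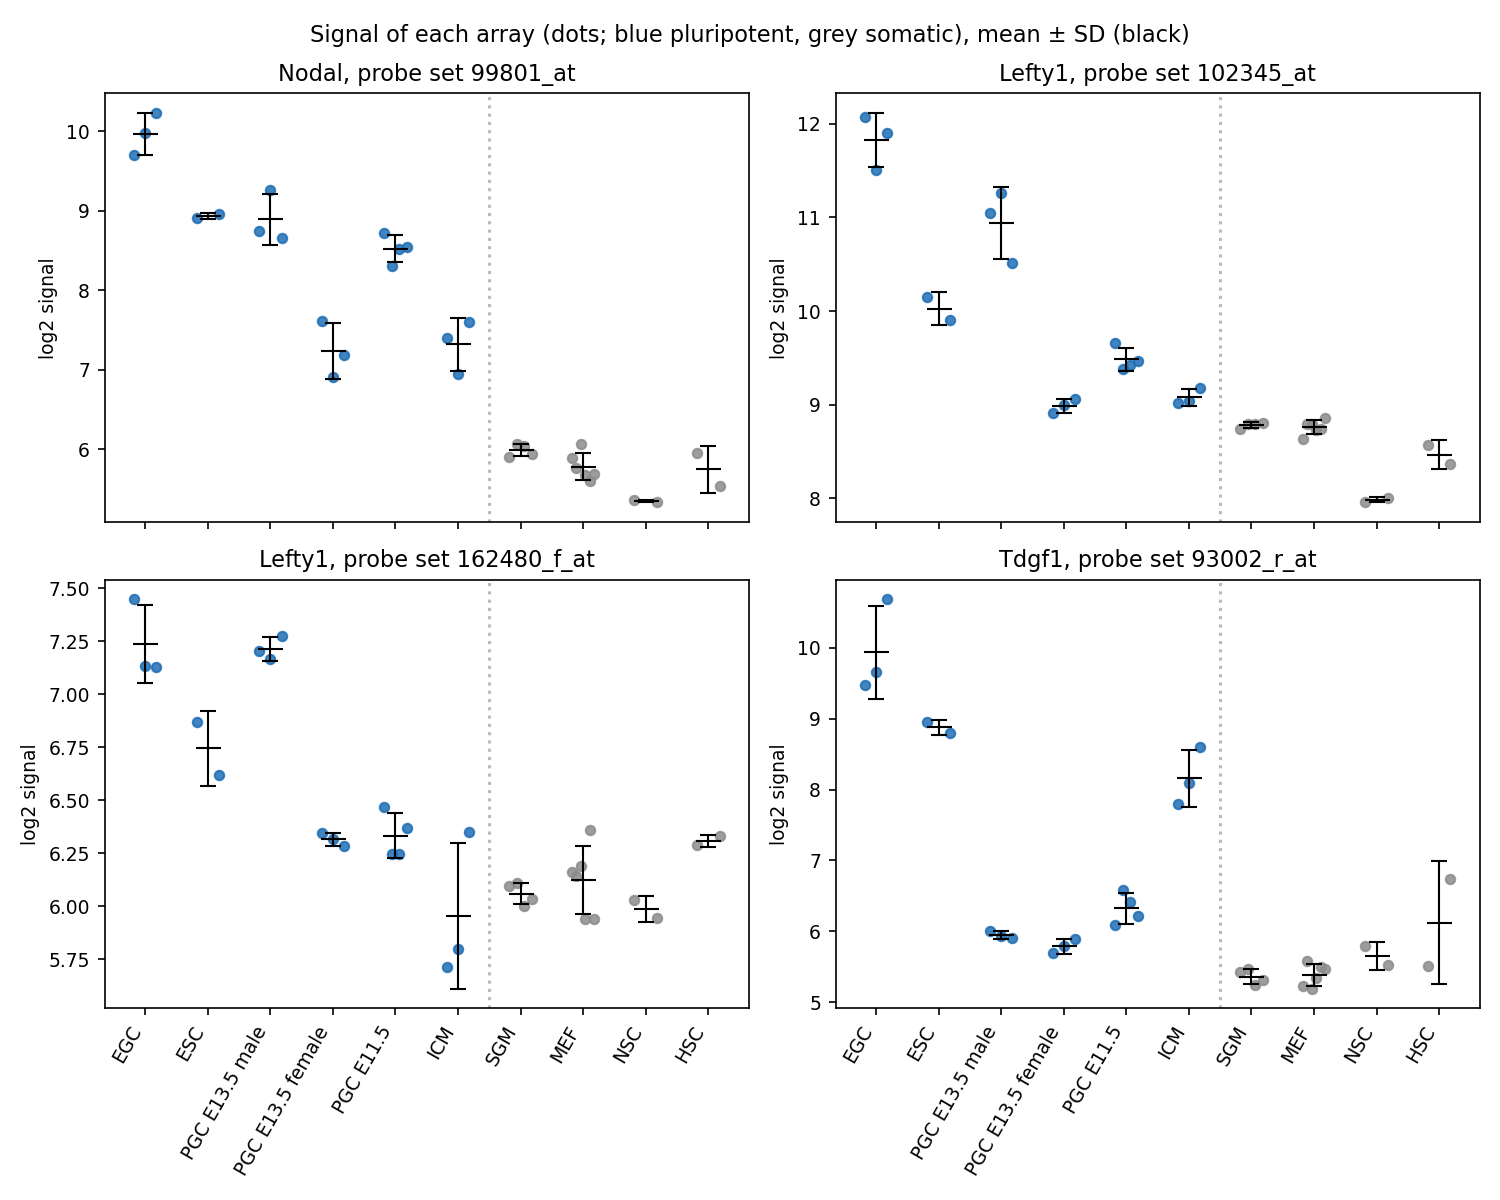
Log2 signal (y axis) of each array (dots) by cell group (x axis) for the 4 probe sets, with mean ± SD in black, pluripotent groups in blue and somatic groups in grey. EGC has the highest mean on every panel, although on the second Lefty1 probe set its arrays overlap those of PGC E13.5 male. Tdgf1 is low in the 3 germ cell groups, and the second Lefty1 probe set spans the smallest range.

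The promoter windows of Tdgf1 and Nodal are printed because they are the ligand and coreceptor whose levels part in germ cells. The sequences are the 250 bases before the annotated start, from RefSeq on build GRCm38.p6, given 5′ to 3′ in the direction of transcription, with motif matches in capitals. Tdgf1 lies at chr9:110946159-110946408 on the minus strand and Nodal at chr10:61417722-61417971 on the plus strand. The table gave a window for 2 of the 3 genes, and Lefty1 is named only.
Tdgf1: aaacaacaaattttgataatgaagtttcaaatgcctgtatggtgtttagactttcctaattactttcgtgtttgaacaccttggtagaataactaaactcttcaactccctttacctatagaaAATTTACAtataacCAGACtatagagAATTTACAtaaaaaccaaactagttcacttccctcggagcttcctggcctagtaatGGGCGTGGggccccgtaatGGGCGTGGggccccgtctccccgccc
Nodal: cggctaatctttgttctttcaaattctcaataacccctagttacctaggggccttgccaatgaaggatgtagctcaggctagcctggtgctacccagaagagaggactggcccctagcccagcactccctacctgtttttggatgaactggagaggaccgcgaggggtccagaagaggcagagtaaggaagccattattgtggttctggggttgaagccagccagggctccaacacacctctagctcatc
The motifs searched on both strands were the Smad box CAGAC, the FoxH1 motif AATNNACA, the Sox motif CATTGT, the octamer ATTTGCAT and a KLF-type box GGGNGTGG, of which the last was added after the Tdgf1 sequence had been read. Tdgf1 held 2 matches to the FoxH1 motif, starting 127 and 101 bases before the start, with 1 Smad box between them at 113 bases. It also held 2 KLF-type boxes, at 45 and 26 bases. None of the 5 overlapped another. The Nodal window held no match to any of these letters. Sequence outside the 250 bases was not searched for either gene, so matches elsewhere in them are not known from this. Of 32851 promoter windows of the same length, 42.2% held a Smad box, 10.9% a FoxH1 motif, 10.7% a Sox motif, 1.6% an octamer and 15.9% a KLF-type box.

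The comparison of male and female germ cells at E13.5 asks how the pathway differs at the stage when female germ cells enter meiosis and male germ cells do not. Nodal and Lefty1 were higher in males, and Tdgf1 did not pass the test. With the arrays given above, neither Nodal nor Lefty1 overlapped between the sexes (share over all genes not counted). The log2 difference of Nodal was 1.66 ± 0.18 (SE, 3 arrays each), with an adjusted p of 3.47e-07. That of Lefty1 was 1.95 ± 0.14, with an adjusted p of 6.00e-11. The second Lefty1 probe set differed by 0.90 ± 0.13. Tdgf1 differed by 0.16 ± 0.25 (95% interval -0.35 to 0.66, adjusted p 0.732). Its error rests on the spread within all 10 groups (pooled SD 0.32), which was 0.65 in EGC and 0.87 in HSC. The SD was 0.053 in PGC E13.5 male and 0.10 in PGC E13.5 female, and their Tdgf1 arrays did not overlap. Thus 2 of 3 genes were called higher, where 2.33% of all genes were called higher and 8.62% were called in either direction. By size, Lefty1 was 2nd and Nodal 4th from the top of 8251 genes, of which 17 (0.206%) were called higher by at least 2-fold.

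Both sexes were also set against PGC E11.5, whose 4 arrays the 2 comparisons share. In PGC E13.5 male, Lefty1 was higher than in PGC E11.5 by 1.46 ± 0.13, a 2.74-fold difference with an adjusted p of 4.83e-09. Its second probe set differed by 0.88 ± 0.12 (1.84-fold). Nodal was 0.37 ± 0.17 higher, which did not pass (adjusted p 0.0654), and Tdgf1 differed by -0.38 ± 0.23 (adjusted p 0.160). The male and E11.5 arrays of Nodal overlapped, with 8.66 to 9.26 in males and 8.30 to 8.72 at E11.5. Those of Tdgf1 did not, with 5.90 to 6.00 in males and 6.09 to 6.59 at E11.5 (share over all genes not counted). Nodal passed the test without PGC E11.5 replicate 1 (adjusted p 0.0498) or without PGC E13.5 male replicate 3 (0.0430), whereas without PGC E13.5 male replicate 2 the difference was 0.18 (0.395). Hence 1 of 3 genes was called, against 52.4% of all genes called in this comparison, 31.7% higher and 20.7% lower. In PGC E13.5 female, Nodal was lower than in PGC E11.5 by 2.44-fold, a log2 difference of -1.29 ± 0.17 with an adjusted p of 1.89e-06. Lefty1 was lower at -0.50 ± 0.13 (adjusted p 0.00332), but on its second probe set the difference was -0.02 ± 0.12 (adjusted p 0.931). Tdgf1 differed by -0.54 ± 0.23 and missed the threshold (adjusted p 0.0745), although its arrays did not overlap. That made 2 of 3 genes called lower, where 15.2% of all genes were called lower and 31.5% in either direction. Genes called both higher in males than females and lower in females than at E11.5 numbered 76, or 0.921% of those tested, and Nodal and Lefty1 were among them.

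Of the other pathway genes on the list, 49 of 64 were measured, and between the sexes at E13.5 3 were called higher in males, 2 were called lower and 44 were not called. Their median difference was 0.10, beside 0.05 over all genes. Those called were all under 2-fold and are named after their values were seen. Higher in males were Tgif1, a corepressor of Smad complexes (10.67, 10.41 and 10.09 in males, against 9.62, 9.48 and 9.43 in females), and the homeobox genes Gsc and Lhx1, known targets of the pathway in the embryo. Their differences were 0.88 ± 0.19, 0.49 ± 0.12 and 0.51 ± 0.10, with adjusted p of 0.00262, 0.0108 and 0.00171. Lower in males were Acvr2a, an activin receptor (difference -0.71 ± 0.17, adjusted p 0.00847), and the homeobox gene Hhex (-0.45 ± 0.13, adjusted p 0.0305). No array of these 5 genes overlapped between the sexes, but they were picked because they were called. The share of all genes without such overlap was not counted. None of the 7 measured transducers, which include Smad2, Smad3, Smad4 and Foxh1, was called.

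On the list for meiosis entry, 5 of 8 measured genes were called lower in males than in females, where 6.29% of all genes were. Stra8, which is required for meiotic entry, had 5.24, 4.94 and 5.14 in males, against 8.41, 7.80 and 9.40 in females, and 4.70, 4.58, 4.67 and 4.33 at E11.5. The female values stood apart from both other groups, with a difference of -3.43 ± 0.22 for males minus females. Stag3, a meiotic cohesin subunit, had 8.90, 8.63 and 8.56 in males, against 9.50, 9.26 and 9.44 in females. The other 3 were Syce2, Dmc1 and Crabp1. Crabp1 had means of 8.23 in females and 7.49 in males, below 9.38 in SGM and 9.50 in MEF, so it is not particular to germ cells here. Of the 8 measured genes on the list for male germ cell fate, 1 was called, where 8.62% of all genes were. This was Rb1, a cell cycle repressor, which was lower in males, at -0.84 ± 0.21. Nanos2, a male germ cell factor, was not analysed here.

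Other measures differed between the same groups. The difference between the 3′ and 5′ control probe sets of actin (a reading of RNA integrity and amplification length) was 0.21 to 0.51 in male arrays, against 0.67 to 1.25 in female arrays and 0.81 to 1.09 at E11.5. That of Gapdh overlapped, with 3.11 to 3.98 in males, 3.57 to 4.03 in females and 3.21 to 3.67 at E11.5. The mean over all 10 gonad soma markers was 7.25 to 7.31 in males, against 7.01 to 7.19 in females and 6.81 to 7.07 at E11.5, whereas SGM had 8.23 to 8.31. Of those 10 markers 1 was called higher in males than in females, where 2.33% of all genes were. This was Dhh, a Hedgehog ligand of the fetal testis soma, with means of 9.37 in males, 8.51 in females and 8.44 at E11.5. Of 6 fibroblast markers it was Dcn, a matrix proteoglycan, with means of 8.49 in males, 7.59 in females and 6.79 at E11.5, while the endothelial list mean overlapped between the sexes (6.75 to 6.89 in males, 6.59 to 6.86 in females). Against E11.5, males had 6 of 10 gonad soma, 3 of 6 fibroblast and 4 of 5 endothelial markers called higher, and females had 3, 1 and 3. Over all genes, 31.7% were called higher in males and 16.3% in females, so the counts of the sexes rest on unlike backgrounds. The Nodal signal of SGM was 5.91 to 6.06, but SGM is of E11.5 and mixed sex, and the series held no gonad soma of E13.5. The part of these measures in the germ cell results was not tested.

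**Figure D2:**
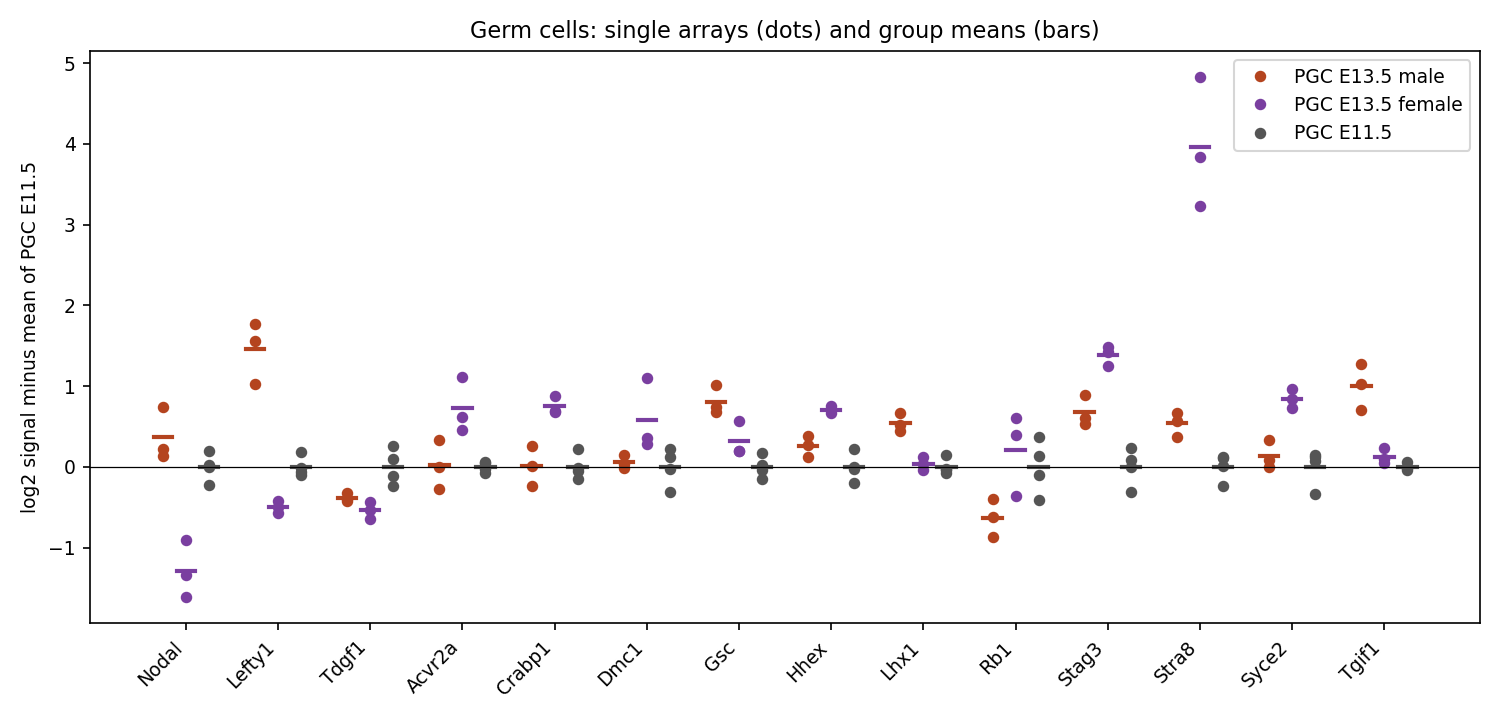
Log2 signal minus the PGC E11.5 mean (y axis) for the 3 genes and for the listed pathway and germ cell genes called between the sexes (x axis), with single arrays as dots and group means as bars. Nodal and Lefty1 sit lower in female arrays than in male arrays, Stra8 sits higher in female arrays, and Tdgf1 lies slightly below 0 in both sexes.

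PGC E11.5 and SGM came from the same tissue and were split by the Oct4/GFP reporter. All 3 genes were higher in the germ cells, in a comparison that called 23.2% of genes higher and 50.2% in either direction. The log2 difference was 2.54 ± 0.15 for Nodal, 0.97 ± 0.21 for Tdgf1 (adjusted p 3.54e-04) and 0.70 ± 0.12 for Lefty1 (adjusted p 1.01e-05), with 4 arrays a group. None of the 3 overlapped between PGC E11.5 and SGM (share over all genes not counted). On the second Lefty1 probe set the difference was 0.27 ± 0.11. Of the other pathway genes 9 were higher, 14 lower and 26 not called. Gdf3, a related ligand, was higher by 2.42 ± 0.19 and Smad2, a receptor-activated transducer, by 1.67 ± 0.19. Inha, the inhibin alpha subunit, was lower at -1.29 ± 0.19. On the meiosis list Syce2 was higher by 2.24 and Stag3 by 1.87 on the log2 scale, and Crabp1, a retinoic acid binding protein, was lower at -1.90. The actin 3′ to 5′ difference was 0.810 to 1.09 in PGC E11.5, just above 0.645 to 0.805 in SGM, and that of Gapdh overlapped (3.21 to 3.67 in PGC E11.5, 2.75 to 3.22 in SGM). The part of RNA quality was not tested.

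Set against ICM, PGC E11.5 had more Nodal and Lefty1 and less Tdgf1. The difference was 1.20 ± 0.17 for Nodal (2.30-fold, adjusted p 1.51e-06) and 0.41 ± 0.13 for Lefty1 (1.32-fold, adjusted p 0.0114). Tdgf1 was 3.56-fold lower, at -1.83 ± 0.23 (adjusted p 2.98e-07). All 3 genes were called and no arrays overlapped (share over all genes not counted). The comparison called 41.8% of all genes, 23% higher and 18.7% lower. The Lefty1 call was lost with array weights (0.42, adjusted p 0.0769). Among the other pathway genes 8 were higher, 11 lower and 30 not called. The falls by size were Eomes, a T-box factor that acts downstream of Nodal in gastrulation and is also a trophectoderm gene (-3.55 ± 0.46), Nedd4l, a ubiquitin ligase that targets activated Smads (-2.64 ± 0.18), and Ppm1a, a Smad phosphatase (-1.71 ± 0.16). Syce2 was higher by 2.07 ± 0.16, Stag3 by 1.33 ± 0.10 and Drap1, a corepressor that restrains Nodal signalling through Foxh1, by 1.23 ± 0.17. Neither RNA control overlapped between the groups: the actin 3′ to 5′ difference was 0.810 to 1.09 in PGC E11.5 and 1.21 to 1.86 in ICM, and that of Gapdh was 3.21 to 3.67 in PGC E11.5 and 3.77 to 4.17 in ICM. Of the cell type markers, 5 of 8 for primitive endoderm and 3 of 5 for trophectoderm were called lower in PGC E11.5. The part of these measures was not tested, and strain differed between PGC E11.5 and ICM as well.

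ESC compared with ICM asks what differs between the cultured line and cells of the blastocyst. Nodal was 3.07-fold higher in ESC, at 1.62 ± 0.20 (adjusted p 5.83e-07), and Lefty1 1.93-fold higher, at 0.95 ± 0.15 (adjusted p 2.85e-05). Tdgf1 differed by 0.72 ± 0.27 (95% interval 0.15 to 1.28) and missed the threshold with an adjusted p of 0.0518, although its arrays did not overlap. Without ICM replicate 3 the Tdgf1 difference was 0.93 and passed (adjusted p 0.0178), and without ICM replicate 1 it was 0.54 (0.175). Its adjusted p reached 0.233 without ESC replicate 1. So 2 of 3 genes were called higher, against 15.3% of all genes higher and 27.8% in either direction. With 49 other pathway genes measured, 6 were higher, 6 lower and 37 not called. Eomes was lower, at -3.60 ± 0.55, and so was Nedd4l, at -1.76 ± 0.22, while Drap1 was higher by 1.14 ± 0.20. Syce2 was higher by 1.56 ± 0.19.

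The ICM arrays themselves were uneven. Eomes read 10.61, 10.35 and 6.84 in ICM replicates 1, 2 and 3, and the trophectoderm list mean followed the same pattern. Replicate 3, with the lowest Eomes, had the highest value of the 3 ICM arrays for Nodal (7.61), Lefty1 (9.18) and Tdgf1 (8.59). Primitive endoderm markers averaged 7.83 to 7.91 in ESC arrays, against 8.69 to 8.88 in ICM arrays. Of these 5 of 8 were called lower in ESC, as were 2 of 5 trophectoderm markers and 12.6% of all genes. The actin 3′ to 5′ difference was 1.37 to 1.75 in ESC and 1.21 to 1.86 in ICM, whereas that of Gapdh did not overlap, with 2.46 to 2.84 in ESC and 3.77 to 4.17 in ICM. The part of RNA quality and the share of these cell types in the ICM values was not tested, and strain differed between ESC and ICM as well.

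EGC and ESC are both male lines grown in LIF and serum, of germ cell and blastocyst origin. All 3 genes were higher in EGC, where 20.8% of all genes were called higher and 39.4% in either direction. Lefty1 was 3.49-fold higher, at 1.80 ± 0.15 (adjusted p 1.20e-09), Tdgf1 2.08-fold, at 1.06 ± 0.27 (adjusted p 0.00332), and Nodal 2.04-fold, at 1.03 ± 0.20 (adjusted p 1.97e-04). No arrays overlapped (share over all genes not counted), and the second Lefty1 probe set differed by 0.49 ± 0.14. Tdgf1 was uneven among EGC arrays, with replicate 3 at 10.68 above 9.47 and 9.65, and without that array the difference was 0.68 (adjusted p 0.0336). Of the other pathway genes 9 were higher, 13 lower and 27 not called. Tgif1 was higher by 1.60 ± 0.21 and Smad2 lower, at -1.05 ± 0.25. Of 7 measured transducers 5 were called lower and 1 higher, which was Smad3 (means of 5.29 in EGC and 4.72 in ESC). The transducer list also holds the corepressor Drap1 and the phosphatase Ppm1a, so its counts do not give a direction of signalling. Sycp1, a synaptonemal complex gene, was lower at -1.29 ± 0.39. The actin 3′ to 5′ difference was 1.72 to 1.99 in EGC and 1.37 to 1.75 in ESC, and that of Gapdh did not overlap, with 3.07 to 3.23 in EGC and 2.46 to 2.84 in ESC. Of the 6 fibroblast markers 3 were called higher in EGC, where the list mean was 8.39 to 8.53, against 8.00 to 8.29 in ESC. The part of these measures was not tested.

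EGC were also set against PGC E13.5 male, the male germ cells of the series. Tdgf1 was 15.9-fold higher in EGC, at 3.99 ± 0.25 (adjusted p 1.07e-12), and ranked 5th from the top of all genes. Nodal was 2.11-fold higher, at 1.08 ± 0.18 (adjusted p 3.00e-05), and Lefty1 1.85-fold, at 0.89 ± 0.14 (adjusted p 9.39e-06). On the second Lefty1 probe set the groups differed by 0.02 ± 0.13 (adjusted p 0.918). All 3 genes were called on the set used, against 14.8% of all genes higher and 30.7% in either direction. The other pathway genes gave 3 higher, 9 lower and 37 not called. Tgif1 was higher by 1.91 ± 0.19 and Ppm1a by 1.53 ± 0.18. Dusp6, a phosphatase of the FGF and ERK pathway, was higher by 2.21 ± 0.34, while Stag3 and the germ cell gene Dazl were lower, at -2.36 ± 0.11 and -1.19 ± 0.17. The actin 3′ to 5′ difference was 1.72 to 1.99 in EGC and 0.21 to 0.51 in PGC E13.5 male, while that of Gapdh overlapped, with 3.07 to 3.23 in EGC and 3.11 to 3.98 in PGC E13.5 male. Their part in these results was not tested.

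Over all groups, the mean of the 6 pluripotent groups exceeded that of the 4 somatic groups for all 3 genes, where 29.1% of genes were called higher, 34.9% lower and 63.9% in either direction. The difference was 2.76 ± 0.084 for Nodal (6.79-fold), 1.87 ± 0.12 for Tdgf1 (3.67-fold) and 1.56 ± 0.063 for Lefty1 (2.95-fold), with adjusted p of 8.82e-21, 4.07e-14 and 6.26e-18. By size they ranked 18th, 57th and 110th. For Nodal and Lefty1, but not for Tdgf1, every pluripotent array lay above every somatic array, as it did for 71 of 8251 genes (0.861%). On the second Lefty1 probe set the difference was 0.51 ± 0.059 and arrays overlapped. Leaving out each group in turn, a set of alternatives chosen after seeing the data, gave 2.47 to 3.01 for Nodal, 1.21 to 1.77 for Lefty1 and 1.39 to 2.22 for Tdgf1. Of the other 49 pathway genes, 18 were higher, 17 lower and 14 not called, with a median of -0.02 beside -0.01 over all genes. Gdf3 differed by 2.76 ± 0.10, its group means lying between 10.40 and 11.51 in pluripotent cells and between 7.63 and 8.69 in somatic cells. Eomes was higher by 1.79 ± 0.23, with ICM as the highest group and NSC (3.55) and HSC (3.70) as the lowest. Tgif1 was higher by 1.14 ± 0.087, with its lowest mean in NSC (6.93). Its MEF mean (10.88) was above that of every pluripotent group but EGC (12.30). Tgfb2, a TGF-beta ligand, was lower at -1.14 ± 0.081. Its means were 8.39 in MEF, 6.59 in SGM, 6.18 in NSC and 5.84 in HSC. The pluripotent means ran from 5.06 in ICM to 5.81 in PGC E13.5 male, so HSC lay close to them. On the meiosis list Syce2 was higher by 2.48 ± 0.078 and Stag3 by 1.40 ± 0.051. The Gapdh 3′ to 5′ difference was 0.83 to 0.97 in NSC and 0.93 to 1.07 in HSC, against 2.17 to 4.17 in the other groups. That of actin overlapped between pluripotent and somatic arrays. NSC and HSC also had the lowest Lefty1 means. The part of RNA quality was not tested.

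**Figure D3:**
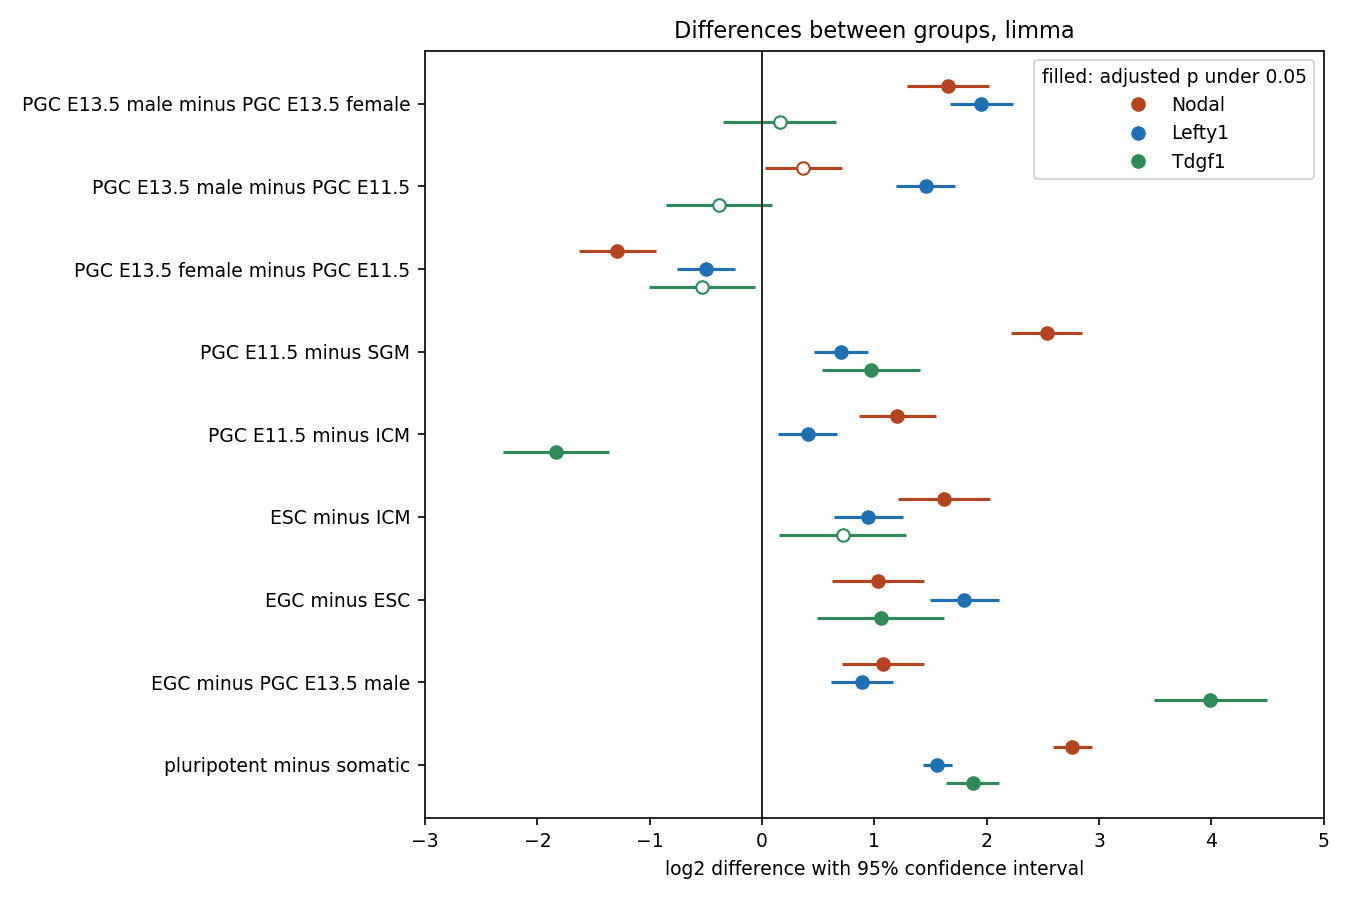
Log2 difference (x axis) with its 95% confidence interval for Nodal, Lefty1 and Tdgf1 in the 9 comparisons (y axis), from limma, with filled points at an adjusted p under 0.05. Tdgf1 lies apart from Nodal and Lefty1 in PGC E13.5 male minus female (0.16), in PGC E11.5 minus ICM (-1.83) and in EGC minus PGC E13.5 male (3.99). In PGC E13.5 male minus PGC E11.5, Lefty1 (1.46) lies above Nodal (0.37) and Tdgf1 (-0.38), whose intervals overlap.

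Across the 10 group means, Nodal and Lefty1 ran in parallel. Their Pearson correlation was 0.92 (Spearman 0.99), and 0.90 without EGC and 0.92 within the 6 pluripotent groups. Nodal with Tdgf1 gave 0.72, and 0.56 without EGC, while Lefty1 with Tdgf1 gave 0.67, and 0.36 without EGC. These are descriptions over means that share arrays, RNA amplification and normalization. The pair parted between ESC and PGC E13.5 male, since Nodal was close in both (8.94 and 8.89) whereas Lefty1 was lower in ESC (10.03) than in PGC E13.5 male (10.94). That difference was not tested.

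**Figure D4:**
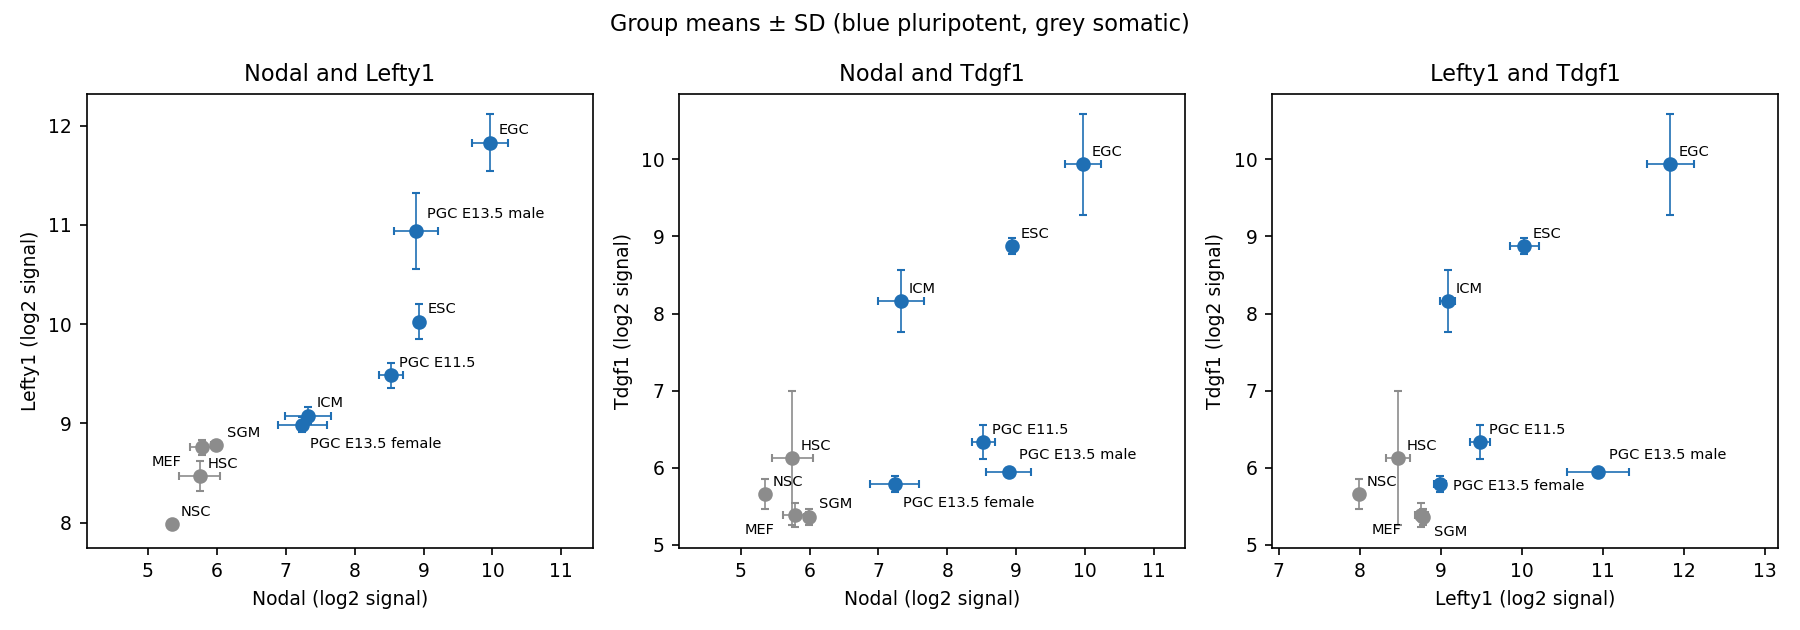
Group means ± SD of each pair of genes (log2 signal on both axes), pluripotent groups in blue and somatic groups in grey. The Nodal and Lefty1 means run in parallel, while for Tdgf1 the germ cell groups lie low beside the EGC, ESC and ICM points.

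The genes most like each member were sought among 5007 other genes whose group means spanned at least 1 log2 unit. For Nodal they were Zcchc10 (r = 0.93), Slc7a7, an amino acid transporter subunit (0.92), Lefty1 (0.92), Dnajc21, a co-chaperone (0.91), and Gdf3 (0.90). For Lefty1 they were Nodal (0.92), Aoah, a lipopolysaccharide-degrading hydrolase (0.89), Tex21 (0.87), Trh, the thyrotropin-releasing hormone precursor (0.86), and Eif4ebp1, a repressor of translation initiation (0.86). Each of the pair was thus on the other's list, 3rd for Nodal and 1st for Lefty1. For Tdgf1 they were Gm2022 (0.94), Mylpf, a myosin light chain (0.92), Zfp97 (0.91), Dhx16, an RNA helicase (0.90), and Dnmt3a, a de novo DNA methyltransferase (0.90). The lists depended on the measure: with Spearman correlation 1, 2 and 1 of the 5 genes were shared for Nodal, Lefty1 and Tdgf1, and over single arrays 4, 4 and 2. Dnmt3a followed the split of the pluripotent groups seen for Tdgf1, with means of 9.58 in EGC, 8.83 in ESC and 7.85 in ICM. PGC E13.5 male had 6.16, PGC E13.5 female had 6.45 and PGC E11.5 had 6.72. Its means in HSC (7.59), NSC (7.02) and SGM (6.87) lay above those of every germ cell group, while MEF had 5.28.

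The rest of the pathway was also compared between ages in the germ line. Of the 49 genes, 16 were higher and 5 lower in PGC E13.5 male than in PGC E11.5, and 4 higher and 5 lower in PGC E13.5 female than in PGC E11.5. The background stood at 52.4% and 31.5% of all genes called. In males all 6 measured antagonists were called, 5 higher and 1 lower, Lefty1 included. Over all genes, 31.7% were called higher in males and 20.7% lower. Those higher included Fst, which is also on the gonad soma list, and Inha. The Inha mean was 8.63 in SGM, 8.01 in males and 7.35 at E11.5. The part of gonad soma RNA in this count was not tested. Cer1, a secreted antagonist of Nodal, was higher by 0.49 ± 0.14, and Tmeff1, a membrane protein that inhibits Nodal through Cripto in Xenopus, was lower at -2.07 ± 0.30. In females Tmeff1 was lower at -1.30 ± 0.30 and Smad2 at -0.90 ± 0.21. Smad2 was lower in males too, at -1.14 ± 0.21, and Tgif1 was higher by 1.00 ± 0.17. The median over all genes was itself 0.15 above 0 in males and 0.09 in females. Dusp6 was lower in both sexes, at -2.12 ± 0.32 in males and -2.37 ± 0.32 in females. On the meiosis list, females were higher than PGC E11.5 by 3.97 ± 0.21 for Stra8, 1.38 ± 0.10 for Stag3 and 1.24 ± 0.33 for Sycp1, a synaptonemal complex gene. These comparisons share the PGC E11.5 arrays.

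**Figure D5:**
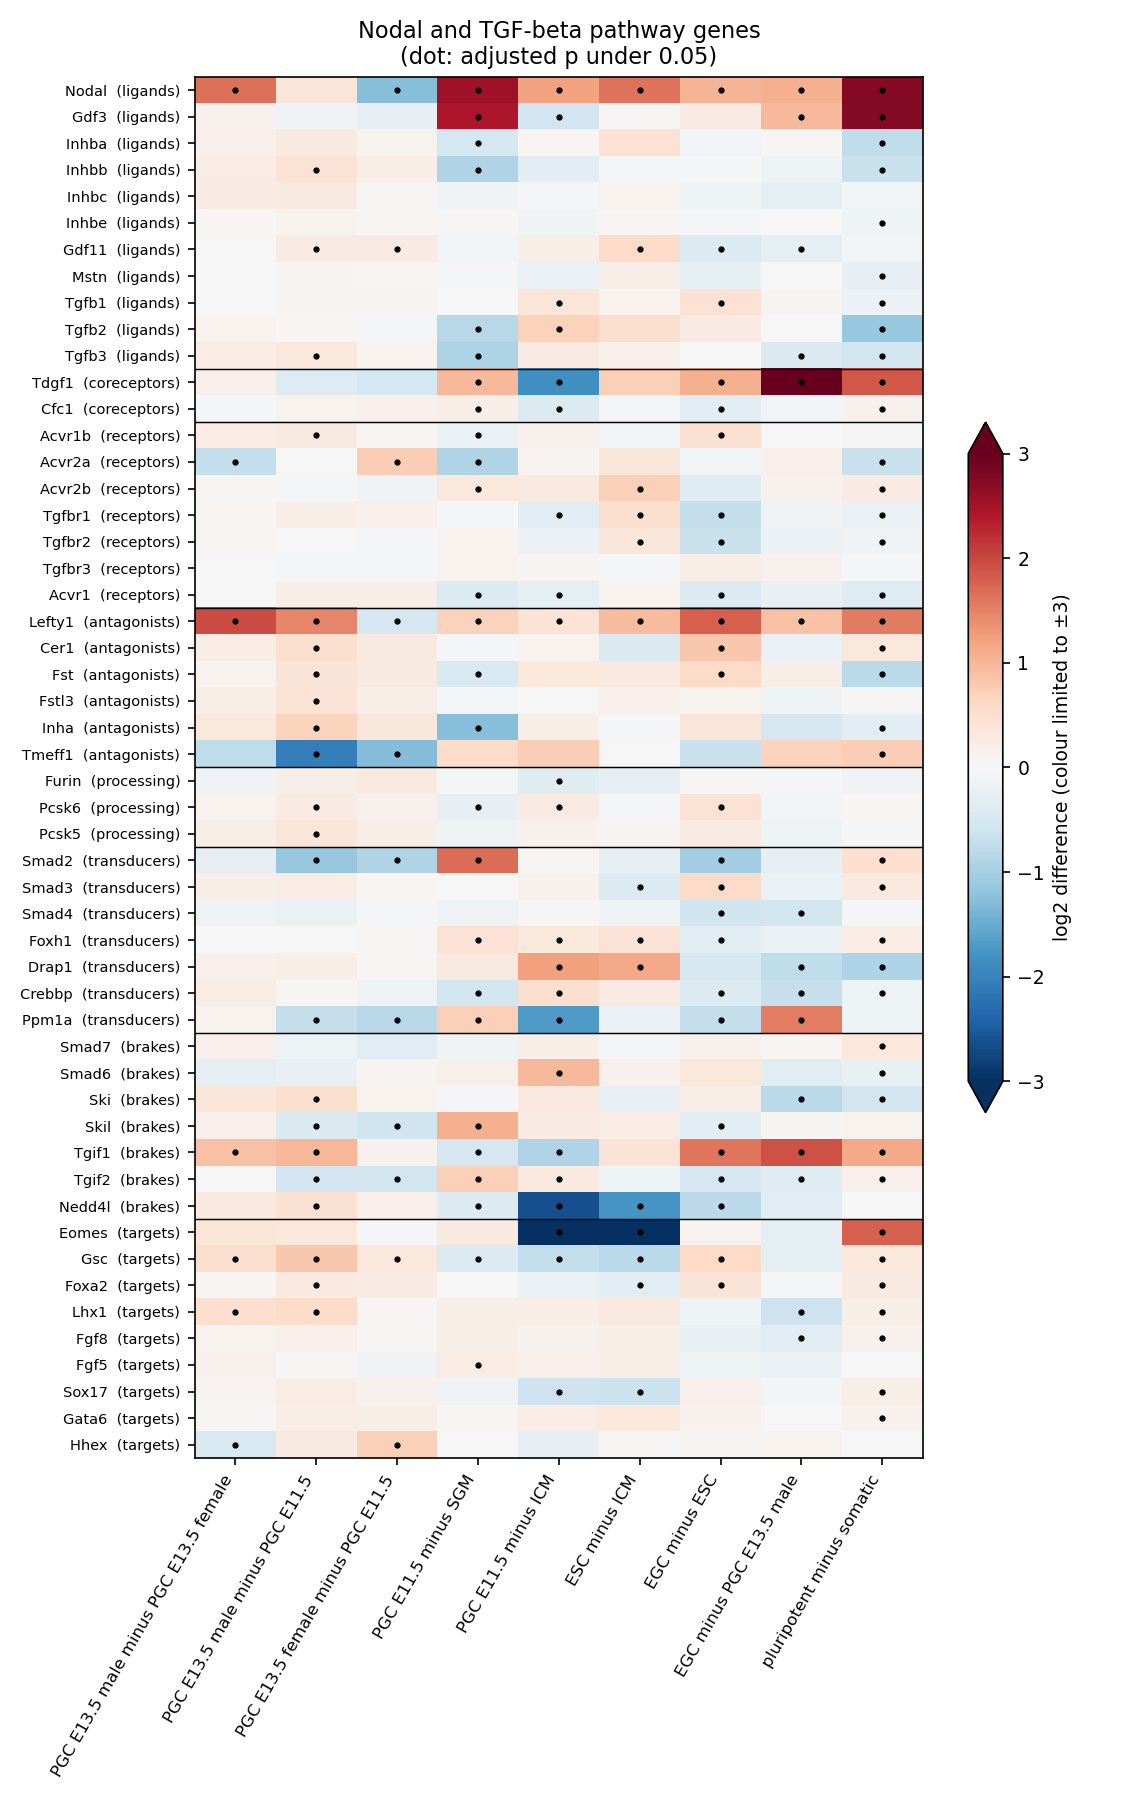
Log2 difference (colour, limited to 3 in either direction) of 52 measured pathway genes (rows, grouped by role) in the 9 comparisons (columns), with a dot at an adjusted p under 0.05. Nodal, Lefty1 and Tdgf1 stand among mostly paler rows, and Eomes and Nedd4l are low where ICM is subtracted.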

How the data were processed

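RNA abundance was read on Affymetrix arrays after 2 rounds of in vitro transcription, per the labels' protocols. The deposited table holds log2 values for 12488 probe sets, which the authors made with RMA (no version given), per the submitters' processing notes. On at least 1 MEF array, 13 probe sets exceed 16, so a further unstated adjustment is possible. Of 34 columns, 2 equal the mean of their group's other columns within 1e-06 (ESC replicate 3 and PGC E11.5 replicate 5) and were left out, leaving 32 arrays, whose number limits the precision. Exactly 1 symbol was annotated for 10833 probe sets, more than 1 for 396 and no symbol for 1193 (66 others are controls), and 10817 symbols were updated by gene ID with the GRCm38.p6 gene table. The brightest probe set stood for each gene.

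All 10 groups entered 1 fit with limma 3.58.1 in R 4.3.3 (lmFit, eBayes). A gene was called at a two-sided adjusted p under 0.05 (Benjamini-Hochberg over 8251 genes). The script was checked on simulated data. Errors of means are SD and of differences SE. Replicate numbers did not pair arrays, since residual correlations of like-numbered arrays ran from -0.491 to 0.521 and lay above 0.1 throughout in 1 comparison (ESC minus ICM, 2 numbers). Alternatives were all 34 columns, other probe set rules, only the groups compared, a replicate block, array weights, centring, quantile normalization, a filter on low signal, another variance model, and leaving out each array.

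The 3 genes and all gene lists were chosen with earlier results of these data known. Named beyond the 3 genes are listed genes called with at least a 2-fold difference, up to 6 per comparison by size, and the 5 genes most correlated with each over group means. Genes named outside that rule (those called between the sexes, and examples of a list's counts) were chosen after their values were seen. Promoter windows come from RefSeq on GRCm38.p6.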

Additional observations from a re-analysis of the deposited data

Results flagged for a closer look

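The E13.5 minus E11.5 difference of Nodal and Lefty1 was positive in male and negative in female germ cells. For Nodal it was 0.37 in male and -1.29 in female germ cells on the log2 scale, and the male change minus the female change was 1.66 (limma, adjusted p 3.47e-07). For Lefty1 it was 1.46 in male and -0.50 in female germ cells, a difference of 1.95 (adjusted p 6.00e-11). Both changes use the same PGC E11.5 arrays, so each difference equals that between the sexes at E13.5. The male Nodal difference did not pass the test by itself, and on the second Lefty1 probe set the female difference was -0.02 (adjusted p 0.931).

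SGM replicate 1 stood apart on Lefty1 probe set 102345_at, at 8.73 while the other 3 SGM arrays lay between 8.80 and 8.80. It was 1 of 12 combinations of a probe set and a group examined for such an array (4 probe sets in the 3 groups of 4 or more arrays), of which chance gives about 5%.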

How the results depend on the processing

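Of 555 values of the 3 genes recomputed under the alternatives, 538 kept their direction and side of the threshold, 14 newly passed it, 3 no longer passed and none reversed. With all 34 columns, Nodal in PGC E13.5 male minus PGC E11.5 (0.37, adjusted p 0.0415), Tdgf1 in PGC E13.5 female minus PGC E11.5 (-0.54, 0.0457) and Tdgf1 in ESC minus ICM (0.72, 0.0180) passed, as 2 columns that are means of others were counted as samples. On the second Lefty1 probe set, PGC E13.5 female minus PGC E11.5 (-0.017) and EGC minus PGC E13.5 male (0.021) no longer passed. With only the groups compared, Tdgf1 passed in PGC E13.5 male (-0.38) and female (-0.54) minus PGC E11.5, and genes called numbered 2253 in place of 3446 for PGC E11.5 minus ICM and 776 in place of 2296 for ESC minus ICM. With the replicate block, Tdgf1 in ESC minus ICM passed (0.79, adjusted p 0.0359), and the block changed no other call of the 3 genes. With array weights, Lefty1 in PGC E11.5 minus ICM no longer passed (0.42), Nodal (0.35) and Tdgf1 (-0.39) in PGC E13.5 male and Tdgf1 in PGC E13.5 female (-0.58) passed against PGC E11.5, and genes called numbered 1243 in place of 711 for male minus female and 4146 in place of 2602 for female minus PGC E11.5. With quantile normalization, Nodal in males (0.47) and Tdgf1 in females (-0.60) passed against PGC E11.5. Leaving out each array gave 0.18 to 0.48 for Nodal in PGC E13.5 male minus PGC E11.5 and 0.54 to 0.93 for Tdgf1 in ESC minus ICM. Genes called then ranged from 389 to 740 for male minus female (389 without female replicate 3 and 414 without male replicate 3), from 1360 to 2359 for ESC minus ICM (1360 and 1476 without ESC replicates 1 and 2), and from 2147 to 3014 for EGC minus ESC (2147 without ESC replicate 2). Where 1 ESC array was left, it was assumed to vary like the other groups. Beyond the points where fewer arrays or other columns entered, the cause was not tested. ESC, NSC and HSC rest on 2 arrays each, and without detection calls low signals may be background.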
